A study of Mus musculus with 3 samples.

Results

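The miRNAs of the miR-199 and miR-214 families were followed by name in mature miRNA counts from cultured mouse bone marrow cells. All 6 listed members were found among the 899 mature miRNAs of the tables: mmu-miR-199a-3p, mmu-miR-199a-5p, mmu-miR-199b-3p, mmu-miR-199b-5p, mmu-miR-214-3p and mmu-miR-214-5p, written below without the species prefix. The cells came from C57BL/6 mice aged 11 weeks and stood for 3 stages of osteoclast formation, each with 1 library. Mature osteoclasts (mOC) had received M-CSF, a macrophage growth factor, at 30 ng/mL and RANKL, the cytokine that induces osteoclasts, at 100 ng/mL for at least 72 h. Preosteoclasts (pOC) had received the same doses of these factors for 24 h. Both were grown from bone marrow macrophages (BMM), which are floating marrow cells kept in M-CSF at 50 ng/mL for 72 h. All cultures, BMM included, were exposed to 500 µM alendronate, a bisphosphonate, for 12 h so that apoptotic bodies form. The series presents the RNA as the content of exosomes, and its labels do not say which vesicle fraction was sequenced. No column carries the name of BMM. A library headed R, a letter the labels do not spell out, enters here only through the authors' fold changes.

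MicroRNAs are cut as short double strands from RNA hairpins, and each strand is named for the arm (5p or 3p) it comes from. Their bases 2 to 8, the seed, pair with target mRNAs. Mir199a-2 and Mir214 are made from Dnm3os, a long noncoding RNA transcribed against the dynamin gene Dnm3, which the transcription factor Twist1 drives in mesenchymal cells of the mouse embryo. miR-199 and miR-214 are known mainly from mesenchymal and stromal cells. In mice miR-214-3p has also been described as promoting osteoclast formation, and as a cargo of osteoclast vesicles that lowers bone formation by osteoblasts.

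The mature sequences decide which reads can be told apart, so the 5 that RefSeq (GRCm38.p6) lists are shown with the seed in capitals. miR-199b-5p is named without a sequence.
miR-199a-3p: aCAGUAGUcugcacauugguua
miR-199b-3p: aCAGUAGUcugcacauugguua
miR-199a-5p: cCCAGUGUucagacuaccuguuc
miR-214-3p: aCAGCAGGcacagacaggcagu
miR-214-5p: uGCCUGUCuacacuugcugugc
Both miR-199 3p arms are identical over all 22 bases. miR-214-3p shares its first 4 bases with them and differs within the seed by U5C and U8G (the miR-199 base first, positions counted from 1 at the 5′ end). In this reference its seed is shared by miR-761 alone, which was not analysed here.

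The hairpins show where each arm comes from, with the arms that RefSeq lists among the members in capitals.
Mir199a-1: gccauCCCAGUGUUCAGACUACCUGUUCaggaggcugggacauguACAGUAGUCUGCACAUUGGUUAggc
Mir199a-2: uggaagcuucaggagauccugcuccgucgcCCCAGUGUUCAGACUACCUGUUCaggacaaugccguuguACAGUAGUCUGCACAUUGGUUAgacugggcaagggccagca
Mir199b: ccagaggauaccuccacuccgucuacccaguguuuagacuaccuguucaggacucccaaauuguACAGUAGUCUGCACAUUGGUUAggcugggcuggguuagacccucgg
Mir214: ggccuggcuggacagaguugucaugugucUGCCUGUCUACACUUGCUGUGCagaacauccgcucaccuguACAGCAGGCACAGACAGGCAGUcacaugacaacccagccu
Each of these hairpins lies within a dynamin gene, on the opposite strand and in an intron. Mir199a-1 is on chromosome 9 (21496495 to 21496564, minus strand) in Dnm2, and Mir199b is on chromosome 2 (32318460 to 32318569, plus strand) in Dnm1. Mir199a-2 (162217814 to 162217923, plus strand) and Mir214 (162223368 to 162223477, plus strand) are both on chromosome 1 in Dnm3, with 5444 bases between them. The 1 other hairpin within 10 kb of a member on the same strand is that of miR-3154, near Mir199b, which was not analysed here. In the GENCODE M21 annotation of GRCm38, Mir199a-2 and Mir214 lie whole within an exon of Dnm3os (162217623 to 162225550) in 2 of its 6 transcripts.

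These positions set what a count can say. The 3p arm of miR-199 occurs in 3 hairpins on 3 chromosomes, and miR-199a-5p occurs in full in Mir199a-1 and in Mir199a-2. The stretch of Mir199b that matches miR-199a-5p best differs from it by 1 base, C10U. miR-199b-3p is named for Mir199b, but its sequence does not tell that hairpin from the other two. A read with 1 error may be placed wrongly between the 5p arms.

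The mOC library held 7017707 counts and the pOC library 5430426. For a count of 0 a fixed limit of 3 counts was used, which is 0.427 CPM (counts scaled to a total of 1000000) in mOC and 0.552 CPM in pOC. The exact 95% interval of a count of 0 in pOC reaches 0.679 CPM. With 1 library a stage there is no replicate check. Every interval is an exact 95% interval of the counts, covers counting error only and compares these libraries, not the stages. Myeloid miRNAs, which both cell types should carry, were present. Of 9 in a list of such markers, 8 were analysed here, all above 0 in both libraries. They summed to 163591 CPM in mOC and 192162 CPM in pOC, most of it miR-21a-5p and miR-146a-5p. By the call described below, 2 of the 8 were higher in mOC, miR-142a-3p (log2 ratio 2.58) and miR-223-3p (1.83), and 0 lower. Over the 560 miRNAs with at least 10 counts, 8.75% were called higher and 12.3% lower. The median log2 ratio was 0.50 for the list and 0.04 over those 560. The tables hold miRNAs alone, so the osteoclast stage itself could not be checked on genes such as Acp5. In such bulk RNA, fewer cells of a type and less of a miRNA per cell cannot be told apart. Neither can be told from less of the miRNA in the vesicles collected.

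The 3p arm of miR-199, described in human liver cancer cells as a repressor of MTOR and MET, was the most abundant member. The miR-199a-3p row held 6687 counts (953 CPM, 930 to 976) in mOC and 4862 counts (895 CPM, 870 to 921) in pOC. The miR-199b-3p row held exactly the same counts in both libraries. In mOC 80 miRNAs had more counts than this arm, and in pOC 76. It was 1.06-fold higher in mOC (1.03 to 1.10), a log2 ratio of 0.09, and so differed by far less than 2-fold between the libraries.

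In the mOC and pOC libraries the counts of the 3p arm stood under both names. Of the 793 miRNAs of the tables with a RefSeq sequence, 2 sets shared an identical one, this arm and the passenger arms let-7a-1-3p and let-7c-2-3p, and each set had identical counts in both libraries. Added together, the 2 rows of the miR-199 arm come to 1906 CPM in mOC and 1791 CPM in pOC, but taken once in both the count and the total the level was 954 CPM in mOC and 896 CPM in pOC. The repeated rows made up 0.127% of the mOC total and 0.110% of the pOC total, so they hardly moved the scaling.

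miR-199a-5p, which is described as repressing Hif1a in rat heart muscle cells, came next in abundance. It had 1168 counts (166 CPM, 157 to 176) in mOC and 730 counts (134 CPM, 125 to 145) in pOC. The mOC value was 1.24-fold higher (1.13 to 1.36; log2 ratio 0.31), below the 2-fold limit used for a call. miR-199b-5p, described as repressing Dyrk1a in the mouse heart, had 117 counts (16.7 CPM, 13.8 to 20.0) in mOC and 187 counts (34.4 CPM, 29.7 to 39.7) in pOC. It was 2.07-fold lower in mOC (1.63 to 2.63; log2 ratio -1.04), and the intervals of its 2 levels do not overlap. With the libraries scaled by the constants behind the authors' normalised counts, its log2 ratio was -0.77, short of 2-fold.

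miR-214-3p, the arm described in osteoclasts, was scarce in both libraries. It had 20 counts (2.85 CPM, 1.74 to 4.40) in mOC and 63 counts (11.6 CPM, 8.91 to 14.8) in pOC. Its level was 4.07-fold lower in mOC (2.43 to 7.11; log2 ratio -1.97), and the intervals of both levels stayed apart. The authors' own normalised counts for it were 3.89 in mOC and 13.1 in pOC. Its partner miR-214-5p had 1 count in mOC and 0 counts in pOC, both under the limit of 3 counts, so no fold is given.

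The order of the arms was the same in both libraries: the miR-199 3p arm, miR-199a-5p, miR-199b-5p, miR-214-3p and miR-214-5p, all of 22 or 23 bases where RefSeq gives a length. Within each library the intervals of neighbours in this order were separate. The 3p arm had 334 times the counts of miR-214-3p in mOC and 77.2 times in pOC.

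**Figure D1:**
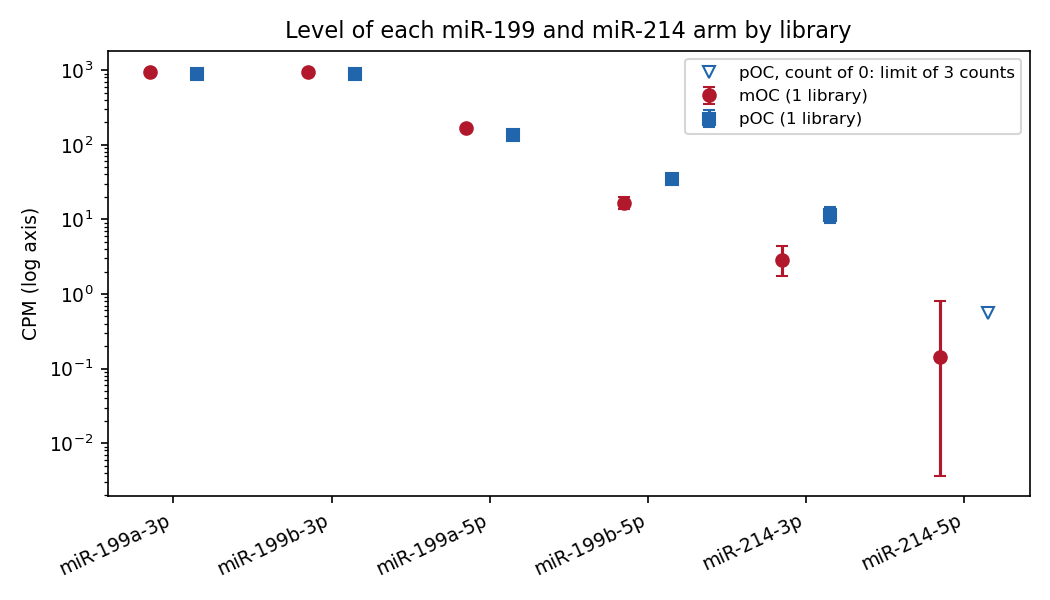
Level of each member in CPM (log axis), with mOC as circles and pOC as squares, 1 library each; bars are exact 95% Poisson intervals and the open triangle is the limit for a count of 0. The 3p rows of miR-199 sit at 953 CPM in mOC and 895 CPM in pOC, while miR-214-3p stands at 2.85 CPM in mOC and 11.6 CPM in pOC.

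A call required a log2 ratio of at least 1 in size, a sum of at least 10 counts and an interval that leaves out equality. Of the 6 members 5 reached 10 counts, and these hold 4 distinct readouts since the 3p rows are the same. Of the 5, 2 were called lower in mOC, miR-214-3p and miR-199b-5p, against 12.3% of the 560 miRNAs with that many counts. None of the 5 was called higher, against 8.75% of those miRNAs. Calls of lower were more frequent at the low abundance of miR-214-3p. Among the 124 miRNAs with a summed count within 2-fold of that of miR-214-3p, 26 were called lower (21%) and 3, itself included, had a log2 ratio as low as its own. Around the abundance of miR-199b-5p, 9 of 77 miRNAs were called lower (11.7%), itself included. There 9, itself included, had a log2 ratio as low as its own.

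**Figure D2:**
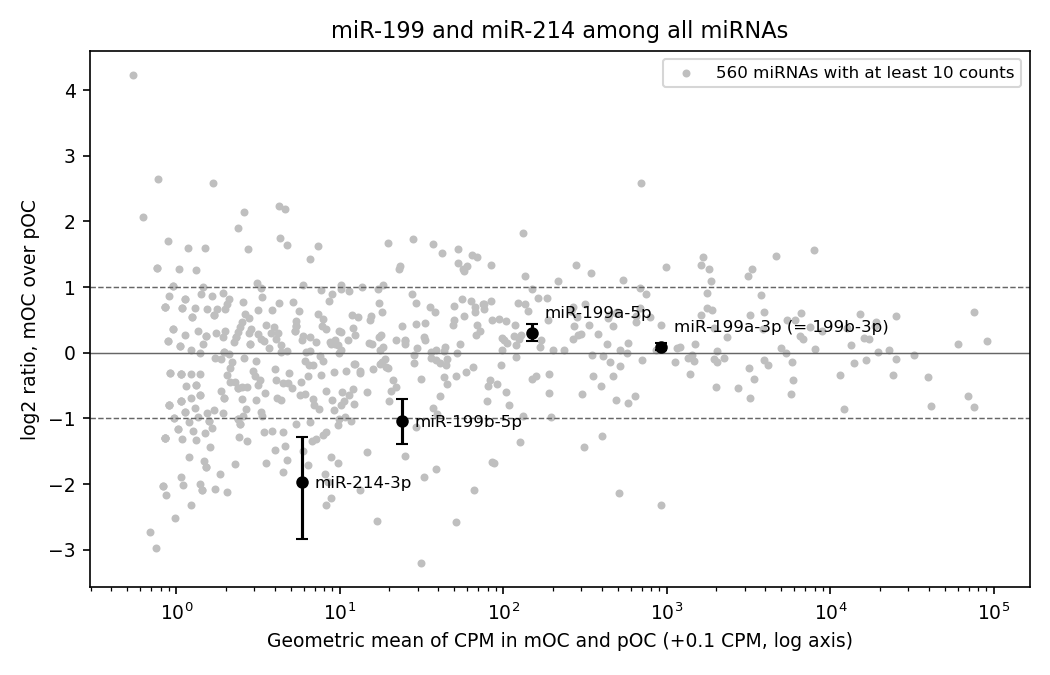
Log2 ratio of mOC over pOC against mean level for the 560 miRNAs with at least 10 counts (grey), with 4 distinct members in black and their exact 95% binomial intervals; dashed lines mark 2-fold. miR-199a-3p (0.09) and miR-199a-5p (0.31) lie near 0, and miR-199b-5p (-1.04) and miR-214-3p (-1.97) lie below the lower line.

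Ratios between arms of 1 library do not depend on how the libraries are scaled. Per 1000 counts of miR-199a-5p there were 17.1 of miR-214-3p in mOC (10.4 to 26.6) and 86.3 in pOC (65.6 to 112), a ratio 5.04-fold lower in mOC (2.97 to 8.87). Per 1000 counts of miR-199a-3p there were 2.99 in mOC (1.83 to 4.62) and 13.0 in pOC (9.94 to 16.6), 4.33-fold lower in mOC (2.58 to 7.58). miR-214-3p was thus lower in mOC against both arms of its neighbour on the Dnm3os transcript. These arms also come from other hairpins, so the part of Mir199a-2 in them could not be counted.

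Against miR-199b-5p, from chromosome 2, the contrast was smaller. miR-214-3p had 171 counts per 1000 of miR-199b-5p in mOC (101 to 276) and 337 in pOC (249 to 450), a ratio 1.97-fold lower in mOC (1.11 to 3.62), and the intervals of these 2 ratios overlap. Among the 5p arms themselves, miR-199b-5p had 100.2 counts per 1000 of miR-199a-5p in mOC (82.1 to 121) and 256 in pOC (217 to 301), 2.56-fold lower in mOC (1.98 to 3.31). It made up 9.11% of the counts of both 5p arms in mOC (7.59 to 10.8%) and 20.4% in pOC (17.8 to 23.1%). The 5p arms of miR-199a and miR-199b therefore differed in direction between the libraries while the 3p arm they share stayed near its level.

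The 3p share of miR-199 as a whole was close in both libraries, while the 5p arms shifted against the 3p arm in opposite directions. With the 3p arm counted once, it took 83.9% of 7972 miR-199 counts in mOC (83.1 to 84.7%) and 84.1% of 5779 in pOC (83.2 to 85.1%), and these intervals overlap. miR-199a-5p had 175 counts per 1000 of miR-199a-3p in mOC (164 to 186) and 150.1 in pOC (139 to 162), 1.16-fold more in mOC (1.05 to 1.29). miR-199b-5p had 17.5 per 1000 in mOC (14.4 to 21.0) and 38.5 in pOC (33.1 to 44.5), 2.20-fold fewer in mOC (1.73 to 2.80). For miR-214 the 3p arm took 20 of 21 counts in mOC (95.2%, 76.2 to 99.9%) and 63 of 63 in pOC (100%, 94.3 to 100%).

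**Figure D3:**
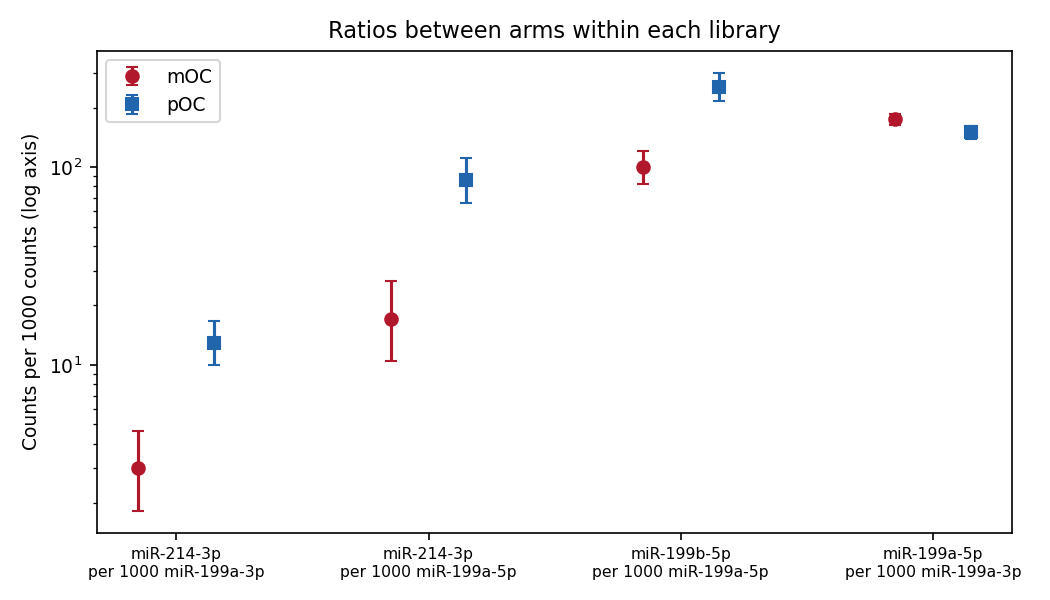
Counts of 1 arm per 1000 counts of another within each library (log axis), mOC as circles and pOC as squares, with exact 95% binomial intervals. miR-214-3p per 1000 of either miR-199a arm, and miR-199b-5p per 1000 miR-199a-5p, are lower in mOC with separate intervals, and miR-199a-5p per 1000 miR-199a-3p is 175 in mOC and 150.1 in pOC.

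The same differences were taken over other related miRNAs with at least 10 counts each. Of the 899 miRNAs, those placed on a GENCODE or RefSeq hairpin by name or position gave 164 pairs of hairpins within 10 kb on the same strand, some of which share a hairpin. Their leading arms, those with the most counts, differed by a median of 0.53 in log2 ratio. miR-199a-3p and miR-214-3p, leading arms of Mir199a-2 and Mir214, differed by 2.06, and 6 of the 164 pairs (3.66%), this one included, differed by at least as much. Among the 42 pairs whose scarcer arm had 50 to 500 counts, 2 did, the pair of Mir199a-2 and Mir214 included. Of the 6 pairs over all 164, miR-450a-5p and miR-503-5p occur under both Mir450-1 and Mir450-2. Many of the 164 and of the 42 pairs join hairpins from Mir379 to Mir410, in the imprinted Dlk1-Dio3 region. Leading arms there had log2 ratios from -0.73 (miR-495-3p) to -2.56 (miR-412-5p). These shares thus count that stretch repeatedly and are not shares of independent neighbours. Over 134 pairs of arms of the same hairpin the median difference was 0.63. The arms of miR-199a differed by 0.22, less than most, and 111 of the pairs differed by at least as much. Those of miR-199b differed by 1.13, and 33 pairs (24.6%) differed by at least as much, with the counts of its 3p arm shared as described.

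**Figure D4:**
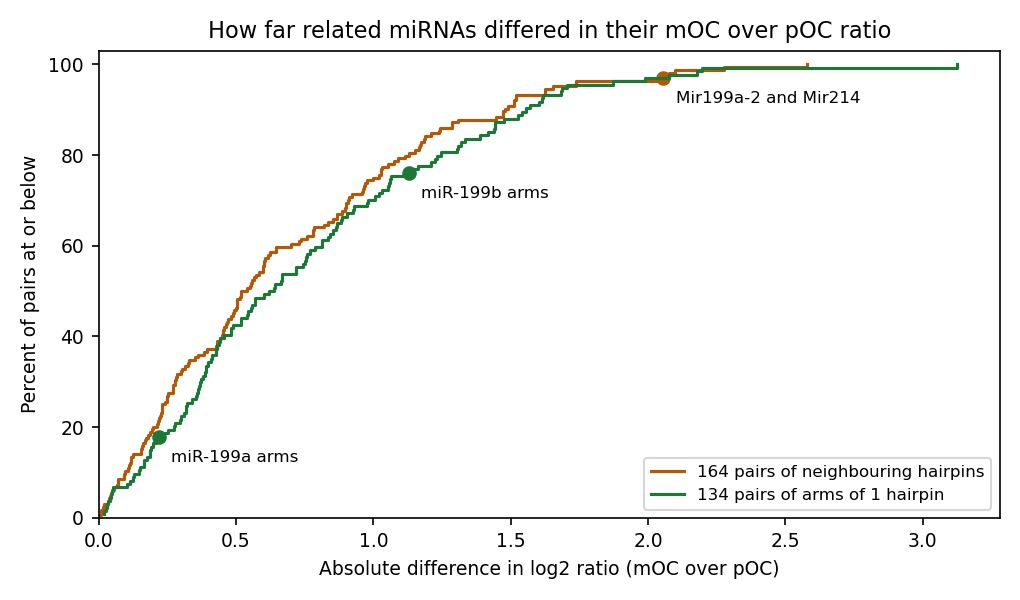
Cumulative share of pairs (percent) by the absolute difference of their log2 ratios, mOC over pOC, for 164 pairs of neighbouring hairpins and 134 pairs of arms of the same hairpin. Mir199a-2 and Mir214 lie near the upper end of the neighbours at 2.06, the arms of miR-199b at 1.13 and those of miR-199a at 0.22.

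Against the library headed R, the values are the authors' and have no interval here. For miR-214-3p the authors' deposited table has a level 2.44-fold higher in pOC than in R (log2 1.29, p = 0.000856). It is the 1 member in that table's list of higher miRNAs, which holds 6.56% of all 899, and no member is among the 4.12% listed as lower. For mOC over R the authors' deposited table gives miR-214-3p a log2 of -0.78 (p = 0.132), in neither list. miR-199b-5p stood at -0.14 for pOC over R (p = 0.606) in the authors' deposited table. For mOC over R the authors' deposited table places it 2.34-fold lower (log2 -1.22, p = 3.28e-06), the 1 member among the 6.23% listed as lower, and no member is among the 5.78% listed as higher. So by the authors' deposited table miR-214-3p passed 2-fold over R in the pOC library and miR-199b-5p in the mOC library. Whether these differences from R differ between pOC and mOC comes down to the counts of mOC and pOC above, and both comparisons share R. Each of these p-values rests on 1 library a side.

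The more abundant members were near the level of R. For miR-199a-5p the authors' deposited table has a log2 of 0.25 for pOC over R (p = 0.252) and 0.52 for mOC over R (p = 0.0169), both short of 2-fold. For miR-199a-3p the authors' deposited table has 0.03 for pOC over R (p = 0.887) and 0.08 for mOC over R (p = 0.711). The values of miR-199b-3p in the authors' deposited table differ from those only in the fourth decimal place (0.0762 against 0.0764 for mOC over R). Comparing pOC with mOC directly, the authors' deposited table lists miR-214-3p (log2 of pOC over mOC 2.01, p = 1.13e-06) and miR-199b-5p (1.04, p = 0.000102) as higher in pOC, as are 7.9% of all miRNAs, and no member among the 5.67% lower in pOC. A log2 of -3.02 for miR-214-5p in the same direction of the authors' deposited table, with a p of 1, stands for the 1 count in mOC and 0 counts in pOC.

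**Figure D5:**
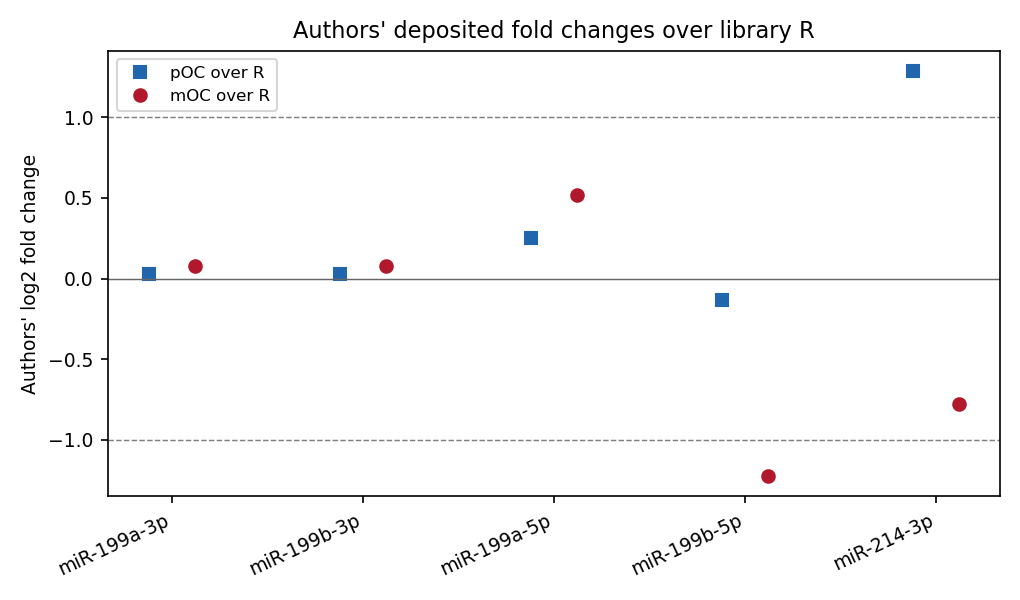
The authors' deposited log2 fold changes over the library headed R for 5 members, pOC as squares and mOC as circles; dashed lines mark 2-fold, and there are no error bars since each value compares 1 library with another. miR-214-3p is at 1.29 in pOC and -0.78 in mOC, miR-199b-5p at -0.14 in pOC and -1.22 in mOC, and the other members lie between 0.03 and 0.52.

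The miRNAs nearest to each member were sought among the 337 with at least 50 counts in mOC or pOC, by the distance between their pairs of log2 fold changes over R in the authors' deposited tables, thus over 3 libraries. Nearest to miR-214-3p was miR-148a-3p, which is described as promoting osteoclast formation, at a distance of 0.09. It had 1718 counts in mOC and 5834 in pOC. The next 4 were at 0.43 to 0.52: miR-708-3p, miR-10b-5p, miR-184-3p and miR-127-3p. These distances have no interval. With 20 counts of miR-214-3p in mOC and 63 in pOC, counting error alone may change their order. For miR-199a-5p the nearest were miR-29c-5p, miR-17-5p, miR-24-1-5p, miR-677-5p and miR-181a-1-3p, at 0.02 to 0.13. For miR-199a-3p they were miR-185-5p, miR-191-3p, miR-1191a, miR-20a-5p and miR-21b, at 0.04 to 0.11. For miR-199b-5p, added to this search after its values were seen, they were miR-410-3p, miR-760-3p, miR-136-3p, miR-92a-3p and miR-320-3p, at 0.11 to 0.38.

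Stromal or mesenchymal miRNAs other than the members were lower in mOC in part, as miR-214-3p was. Of 13 named 12 were analysed here, and 5 of these were called lower in mOC and 0 higher, beside 12.3% lower and 8.75% higher over the 560 miRNAs with at least 10 counts, and 21% lower at the abundance of miR-214-3p. Lower were miR-143-3p (log2 ratio -2.10) and both arms of its cluster partner miR-145a (-1.32 for 5p, -1.63 for 3p), along with miR-127-3p (-1.85) from the imprinted Dlk1-Dio3 region and miR-10b-5p (-1.36). miR-152-3p (0.28), miR-10a-5p (0.34) and miR-125b-5p (0.68) were on the other side of 0. The median of the 11 with at least 10 counts was -0.73, beside 0.04 over all 560, while the summed level was 13159 CPM in mOC and 10553 CPM in pOC, most of it miR-10a-5p and miR-125b-5p. miR-376a-3p was at 0 counts in mOC and 3 in pOC. Unlike the stromal sum, the summed levels of erythroid, liver or serum, muscle and endothelial markers were smaller in mOC. Not every marker was called, and the same shares over all miRNAs apply, 12.3% lower and 8.75% higher. Erythroid miRNAs summed to 299 CPM in mOC and 842 CPM in pOC (4 of 5 called lower), liver or serum miRNAs to 952 CPM in mOC and 2768 CPM in pOC (1 of 3, miR-122-5p, while miR-194-5p had a log2 ratio of 0.76), and muscle miRNAs to 16.5 CPM in mOC and 32.4 CPM in pOC (2 of 4). Among the erythroid miRNAs, miR-486a-5p had 333 counts in mOC and 818 in pOC, and miR-486b-5p 341 and 847. Counts this close may not be separate readouts. Endothelial miRNAs summed to 95.0 CPM in mOC and 153 CPM in pOC (0 of 2, with miR-126a-5p at 0.27). The lymphoid miR-150-5p was not called, with 20 counts (2.85 CPM) in mOC and 17 counts (3.13 CPM) in pOC. The part of such sources in the levels of miR-214-3p and miR-199b-5p was not tested.

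Other miRNAs described as acting on osteoclast formation did not share 1 direction. Of 8 listed promoters, miR-148a-3p was lower in mOC (-2.13) and miR-210-3p, which responds to hypoxia, higher (1.34), with a median log2 ratio of 0.20. Of 11 listed as restraining it, miR-26a-5p (1.48) and miR-34a-5p (1.09) were higher and miR-141-3p (-1.21) and miR-145a-5p (-1.32) lower, with a median of -0.09. Over the 560 miRNAs with at least 10 counts, 12.3% were called lower and 8.75% higher, with a median of 0.04. With lists this short, the calls are not read as a result about either list.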

How the data were processed

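Mature miRNAs were read from 9 deposited tables that cover 3 comparisons of libraries. Raw read counts and normalised counts are given for each miRNA, per the file headers. The authors' normalised counts were treated as a score: each is the count divided by 1 constant per library (5139860 for mOC, 4803435 for pOC) and multiplied by 1000000. The authors also deposited a log2 fold change, the same as a fold ratio, and an unadjusted p-value for each comparison, and lists at a log2 of at least 1 in size with a p-value under 0.05. Named in the submitters' processing notes are HISAT2, StringTie, FastQC and the build GRCm38. The counter, the miRNA annotation and the handling of reads that match several hairpins: not given in the sources used here.

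Columns were matched to samples by name, POC to pOC and OC to mOC. R was matched to none, so its counts were not used; 32 of 36 per-sample columns were left out, repeats included. Counts were divided by column totals, and log2 ratios took a pseudocount of 1 count. Levels have exact Poisson intervals, folds and shares exact Clopper-Pearson intervals, and ratios of ratios exact conditional odds ratio intervals (SciPy 1.17.1, 95%). TMM (edgeR 4.0.16) and DESeq2 1.42.0 size factors were alternatives. The procedure was tested on simulated data that held counting error alone, which cannot show how far cultures of a stage differ. RefSeq sequences were matched by name for 5 of 6 members. Named miRNAs are all members, miRNAs sharing a seed, hairpins within 10 kb (GENCODE M21, RefSeq) or in a dynamin gene, the 5 nearest in the authors' fold changes, and fixed lists. The members and lists were chosen with earlier results of these data known.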

Additional observations from a re-analysis of the deposited data

How the results depend on the processing

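No paired analysis was possible because each stage had 1 library and the labels give no replicate numbers. Scaling by the constants behind the authors' normalised counts raised every log2 ratio of mOC over pOC by 0.27. It gave 0.36 for miR-199a-3p and miR-199b-3p, 0.58 for miR-199a-5p and -0.77 for miR-199b-5p, which then missed the 2-fold limit. With these constants 80 miRNAs were higher in mOC in place of 49, and 49 were lower in place of 69. Without the 5 most abundant miRNAs of either library in the total, miR-199a-3p and miR-199b-3p stood at 0.029. A minimum of 50 counts in 1 library left 35 miRNAs lower in mOC in place of 69, among 337 miRNAs in place of 560. With both 3p rows summed, the 3p share of miR-199 was 91.2% in mOC and 91.4% in pOC. With identical sequences taken once, the level of the 3p arm was 954 CPM in mOC and 896 CPM in pOC. miR-214-3p kept its call under all 7 alternatives run on it, and the 6 ratios between arms kept their direction with a pseudocount of 1 and, where the 3p arm was the denominator, with its rows summed. Depth limits miR-214-5p, with 1 count in mOC and 0 in pOC, and miR-214-3p, with 20 in mOC, and no alternative stands in for a second culture.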

Other observations

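The passenger arms let-7a-1-3p and let-7c-2-3p, the other set with 1 sequence under both names, each had 2248 counts in mOC and 1122 in pOC (log2 ratio 0.63).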
